A study of Mus musculus with 24 samples.

Results

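The LPS effect in the striatum of offspring with maternal immune activation (MIA) was described across all measured genes. Lipopolysaccharide (LPS) is the outer-membrane glycolipid of Gram-negative bacteria. The effect rests on 5 of the 24 libraries of the study, namely MIA striatum LPS replicates 1 and 2 against MIA striatum saline replicates 1, 2 and 3, chosen by their labels and not by any measured value. A sixth library, MIA striatum LPS replicate 3, carries the submitters' mark of exclusion in its title. No main comparison uses it, and its values stand beside the others only as a check.

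All libraries came from male mice aged 8 to 10 weeks. Saline or 4500 endotoxin units of LPS per gram of body weight was injected into the abdomen, and cells were collected 18 hours later. The MIA groups are labelled as such and the control groups as CON, and the labels used here name neither the agent, dose and day of the prenatal exposure nor the litter of each offspring, so prenatal history and litter cannot be told apart. Brains were perfused and stripped of meninges, the dissected striatum was digested with papain, and cells that bound anti-CD11b magnetic beads were lysed together, so each library, labelled as microglia, is a bulk sample of a bead-enriched fraction. Control striatum (3 saline, 3 LPS) and MIA frontal cortex (3 saline, 3 LPS) served as the comparisons. The labels do not say whether the replicates are separate animals. P-values therefore measure the spread between libraries, estimated within groups over 23 libraries in 8 groups, control cortex included.

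As background, microglia are the resident macrophages of the brain, and in the unchallenged adult they carry a surveillance programme that includes the ADP receptor P2ry12 and the transcription factor Sall1. LPS is sensed by Tlr4 with its co-receptors Cd14 and Md-2. The adaptor Myd88 leads to NF-kB and to cytokines such as Tnf and Il1b, while the adaptor Ticam1 leads to Irf3, type I interferon and, through the interferon receptor, to a broad set of antiviral and antigen-presentation genes.

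The 5 libraries held 23212934 to 27261348 counts, within the 19453295 to 29480499 of all 23 libraries used, and 2.37% to 3.64% of their counts came from mitochondrial genes. Levels are given as CPM, counts scaled to a common library total, on library sizes scaled by the trimmed mean of M-values. Microglial genes were abundant in all 5. Cx3cr1, the fractalkine receptor, stood at 7325, 7090 and 7356 CPM after saline and 5688 and 6147 CPM after LPS, and Csf1r, the receptor for colony-stimulating factor 1, at 12111, 11243 and 13101 and 10980 and 11166 CPM. Cells other than microglia were present as well. The summed level of 17 neuron markers was 76.2 to 125 CPM after saline and 52.7 to 94.1 CPM after LPS, that of 20 astrocyte markers 1569 to 1689 and 995.3 to 1585 CPM, that of 20 oligodendrocyte markers 843 to 2922 and 1017 to 1969 CPM, and that of 23 endothelial and pericyte markers 1375 to 3720 and 1950 to 2447 CPM. In such bulk samples, fewer cells of a type and less RNA per cell cannot be told apart.

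LPS raised genes of cytokine production, phagocytic and pattern receptors, the acute phase, iron handling and protein folding, and lowered genes of the surveillance programme. Among 17125 genes tested, 1188 were higher after LPS (6.94%) and 568 were lower (3.32%) at an adjusted p under 0.05 (edgeR quasi-likelihood test, Benjamini-Hochberg adjustment), and 646 and 342 of these differed at least 2-fold. The median log2 fold change over all genes was -0.06. Control striatum had 2180 higher (12.7%) and 1397 lower (8.16%) genes with 3 LPS libraries, and MIA cortex 1210 (7.07%) and 831 (4.85%). DESeq2 gave 1368 higher and 1037 lower genes in MIA striatum. The counts were 719 and 226 without LPS replicate 1, 476 and 282 without LPS replicate 2, and 369 lower without saline replicate 1. With 1 LPS library left, that library is assumed to vary as the other groups do. Of the 1756 called genes, 447 higher and 143 lower genes kept their call without any 1 of the 5 libraries, and a gene named below as changed did so too unless its paragraph says otherwise. Where edgeR called no gene of a list described below in 1 direction, 0 to 2 of its genes had an unadjusted p under 0.05 in that direction and DESeq2 called 0 or 1, unless given otherwise.

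**Figure D1:**
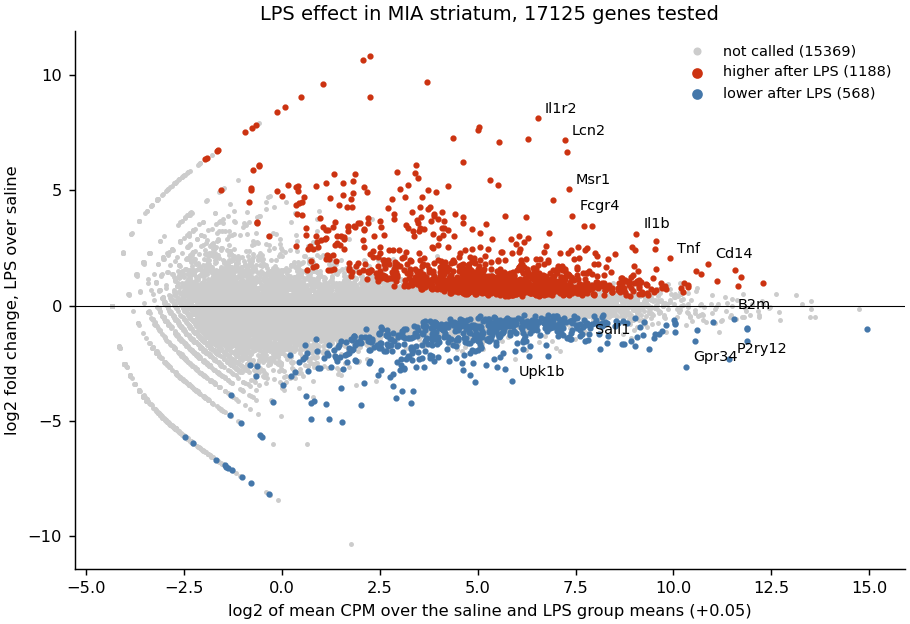
Log2 fold change of LPS over saline in MIA striatum (y axis) against the log2 of the mean level in CPM (x axis), 1 point per gene tested. Red points are the 1188 genes called higher, blue points the 568 called lower and grey points the rest, and Il1r2 and Lcn2 are labelled among the high points at right while P2ry12, Gpr34 and Upk1b stand below 0.

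Where the LPS group averaged 10 CPM or more, the largest rises were in receptors, decoys and secreted defence proteins. Il1r2, a decoy receptor that binds interleukin 1 without signalling, stood at 0.398, 1.07 and 0.462 CPM in the 3 saline libraries and at 202 and 166 CPM in the 2 LPS libraries. Its log2 fold change was 8.13 ± 0.65 (standard error, SE, adjusted p = 5.7e-08). Genes entered this ranking only where the saline and LPS libraries did not overlap. Marco, a macrophage scavenger receptor for bacteria, had 2 counts in the 3 saline libraries together and 1280 in the 2 LPS libraries, a ratio of 1013 per unit of library size (95% exact counting interval 279.8 to 8373). Trem1, which amplifies inflammatory signalling in myeloid cells, went from 0.398, 0.295 and 0.284 to 60.4 and 67.4 CPM. Cd244a, a receptor of the SLAM family, went from 0.575, 0.923 and 1.53 to 162 and 150.3 CPM (7.25 ± 0.51, adjusted p = 1.4e-08). Ackr1, the atypical chemokine receptor of venules and red cells, went from 0.398, 0.259 and 0.249 to 89 and 40.5 CPM, and the 2 LPS libraries differed between themselves by more than for Il1r2 or Trem1. The other genes of this group were Il18rap, Lcn2, Lrg1, Saa3, Plet1, Clec4d, Cxcr2, Pilrb1, Fpr1 and Cd300lf, with log2 fold changes between 5.47 (Cd300lf) and 7.29 (Il18rap). The library titled as excluded lay above the 3 saline libraries for all of them, from 6.65 CPM for Il18rap to 333 CPM for Lcn2.

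Among the largest falls, Gpr34, a receptor for lysophosphatidylserine, was the most abundant. It stood at 2181, 2163 and 2300 CPM after saline and 337 and 367 CPM after LPS, a log2 fold change of -2.65 ± 0.15 (adjusted p = 6.6e-10). Npnt, the integrin ligand nephronectin, fell from 53.5, 58.8 and 53.4 to 5.63 and 5.64 CPM, and Thrsp, a regulator of lipid synthesis, from 45.9, 48.6 and 35.7 to 6.38 and 6.18 CPM. The falls too were ranked only among genes whose saline and LPS libraries did not overlap. For these 3 genes the excluded library lay near the LPS group (518, 3.25 and 9.10 CPM). Tnfrsf17, the receptor BCMA of plasma cells, was low throughout and went from 20.2, 21.4 and 14.5 to 0.436 and 1.55 CPM (-4.24 ± 0.63, adjusted p = 0.00012). Upk1b, Igf2bp2 and Ccdc162 fell with log2 fold changes of -3.29, -2.78 and -2.76. The remaining 8 of the 15, namely Gkn3, Hbb-bt, Adamts16, Smim10l2a, Mycl, Khdrbs3, Cd209a and Adrb1, were each called with all 5 libraries, between -4.0 (Gkn3) and -2.71 (Adrb1), and each lost the call without LPS replicate 1 (adjusted p = 0.1 for Gkn3), LPS replicate 2 (adjusted p = 0.125 for Cd209a) or more than 1 library. Smim10l2a lost it without any of the 5 (adjusted p = 0.0513 to 0.29).

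The surveillance programme of microglia fell in part. Of 30 homeostatic microglial genes, 14 fell and 1 rose, and their median log2 fold change was -0.55. The count that fell was 10 to 14 when 1 of the 5 libraries was left out, and the rise was lost without LPS replicate 1 or LPS replicate 2. P2ry12 (ENSMUSG00000036353.13) stood at 4437, 4581 and 4683 CPM after saline and 834 and 1014 CPM after LPS, a log2 fold change of -2.31 ± 0.21 (adjusted p = 3.4e-07), with 843 CPM in the excluded library. The 3 saline libraries differed little among themselves, and both LPS libraries lay far below them. Siglech, a sialic acid-binding lectin, fell from 2258, 2322 and 2064 to 768 and 784 CPM (-1.51 ± 0.18, adjusted p = 1.4e-05). By contrast Tmem119, a membrane protein much used as a microglial marker, stood at 3983, 3925 and 4203 CPM after saline and 2746 and 2992 after LPS, without passing the test (-0.49 ± 0.24, adjusted p = 0.25), and Cx3cr1 did not pass it either (-0.29 ± 0.16, adjusted p = 0.3). In control striatum 19 of the 30 fell and 1 rose, with a median of -0.64.

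Transcription factors of microglia were lower in 4 of 18 cases and higher in none. Sall1, which maintains microglial identity, stood at 366, 398 and 236 CPM after saline and 117 and 123 CPM after LPS (-1.47 ± 0.21, adjusted p = 8.5e-05). Saline replicate 3 was the lowest of its group, and the groups still did not overlap. Mef2c, which restrains inflammatory responses, went from 523, 513 and 413 to 266 and 299.7 CPM (-0.77 ± 0.14, adjusted p = 0.00078). Ets1 and Maf had log2 fold changes of -0.98 and -1.31, and both lost the call without LPS replicate 1 (adjusted p = 0.142 and 0.241) and without LPS replicate 2 (adjusted p = 0.0542 and 0.13), leaving a count of 2. Dropping saline replicate 1 or 2 ended the call of Maf as well, with adjusted p = 0.0916 and 0.104. Of 19 genes of transforming growth factor beta signalling, only Smad7, its feedback inhibitor, was called, at 70.1, 70.7 and 19.6 CPM after saline and 13 and 16.9 CPM after LPS. Saline replicate 3 lay close to the LPS libraries for Smad7, and the call was lost without any 1 of the other 4 (adjusted p = 0.134 to 0.286).

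Genes induced in disease-associated microglia moved both ways, with 6 of 24 higher, 5 lower and a median of -0.12. The lower count was 3 without LPS replicate 1, LPS replicate 2 or saline replicate 1. Spp1, the secreted phosphoprotein osteopontin, rose from 20.4, 17.6 and 16.3 to 136 and 139 CPM (2.92 ± 0.35, adjusted p = 1.3e-05). Cd63, a tetraspanin of late endosomes, rose from 289.7, 307 and 263 to 787 and 833 CPM, and Cst7, the cathepsin inhibitor cystatin F, from 13.1, 10.8 and 9.09 to 35.7 and 40.3 CPM. The tetraspanin Cd9 went the other way, from 1047, 1115 and 974 to 382 and 410.4 CPM (-1.40 ± 0.13, adjusted p = 6.3e-07). Apoe, the lipid carrier apolipoprotein E, overlapped between the groups (2210, 2497 and 2052 and 1938 and 2077 CPM, -0.17 ± 0.23, adjusted p = 0.75).

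**Figure D2:**
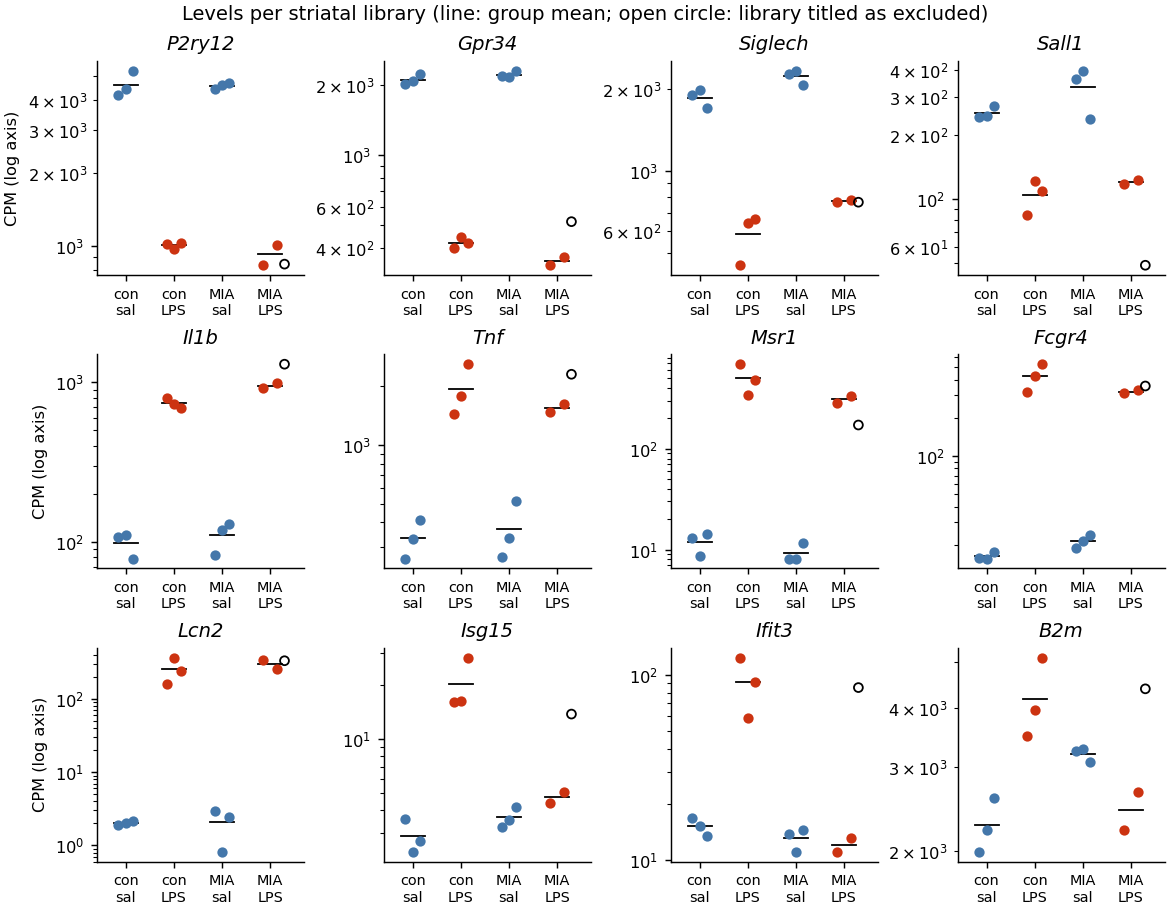
Level in CPM (log axis) of 12 genes in each striatal library of the control (con) and MIA groups after saline (sal, blue) or LPS (red), with lines at group means and an open circle for the library titled as excluded. P2ry12, Gpr34 and Siglech were lower and Il1b, Tnf, Msr1, Fcgr4 and Lcn2 higher after LPS in both prenatal groups, while for Isg15, Ifit3 and B2m the 2 filled LPS points of the MIA group lie below all 3 LPS points of the control group.

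Within LPS sensing the co-receptor Cd14 rose, and Tlr4 itself did not pass the test. Of 28 genes of this list 7 rose and 3 fell. Cd14, which hands LPS to the receptor complex, rose from 729.7, 959 and 811 to 2445 and 3453 CPM (1.82 ± 0.26, adjusted p = 6.5e-05). Tlr4 stood at 92.6, 95.2 and 119 CPM after saline and 126 and 140.0 CPM after LPS and did not pass the test (0.38 ± 0.28, adjusted p = 0.49). Tlr2, a receptor for bacterial lipoproteins, rose from 232, 230.4 and 248 to 771 and 789 CPM, and its partner Tlr1 from 44.9, 38.9 and 51 to 84.9 and 87.8 CPM. The adaptor Myd88 rose by less, from 114, 118 and 131 to 226 and 205 CPM (0.83 ± 0.14, adjusted p = 0.0003).

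Of 26 NF-kB subunits and inhibitors, 10 were higher and 2 lower at an unadjusted p under 0.05, against 12.8% and 8.67% of all genes. At an adjusted p under 0.05, 3 were called higher and 2 lower, against 6.94% and 3.32% of all genes. Each of these 5 calls was lost without at least 1 library. Tnfaip3, the ubiquitin-editing inhibitor A20, stood at 932, 913 and 917 CPM after saline and 1761 and 1672 CPM after LPS, with no overlap, and its adjusted p was 0.026 with all 5 libraries and 0.0705 to 0.156 with any 1 left out. Nfkb2, the precursor of the p52 subunit, was higher, going from 25.6, 25.7 and 18.7 to 54.2 and 42.3 CPM, and Nfkb1, the precursor of p50, was lower, going from 149, 154 and 120.2 to 67.2 and 86.9 CPM. Both lost the call without LPS replicate 1 (adjusted p = 0.21 and 0.294) and without LPS replicate 2 (adjusted p = 0.0539 and 0.0816). The number higher was 0 without LPS replicate 1, LPS replicate 2 or saline replicate 3, and 1 without saline replicate 1 or 2, and the number lower was 0 to 2.

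Among cytokine suppressors and receptors that use Stat3, 4 of 16 genes rose and 1 fell. Stat3 itself rose from 189.7, 184 and 178 to 463 and 534 CPM (1.44 ± 0.18, adjusted p = 2.2e-05). Il4ra, the shared chain of the interleukin 4 and interleukin 13 receptors, rose from 160.3, 146 and 182 to 871 and 883 CPM (2.43 ± 0.23, adjusted p = 7.8e-07), and Pim1, a kinase induced by STAT proteins, from 6.90, 8.42 and 6.04 to 18.6 and 20.7 CPM. The 1 fall was lost without LPS replicate 1 or LPS replicate 2. The excluded library lay between the groups for Il4ra (287 CPM) and within the saline range for Stat3 (182 CPM).

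Interleukin 1 family genes rose, the receptor antagonist among them. Of 21 genes of the interleukin 1 family and inflammasomes, 8 rose and none fell, with a median of 0.84. Il1b (ENSMUSG00000027398.13), the secreted pro-inflammatory cytokine, stood at 82.2, 119 and 129 CPM after saline and 921 and 987 CPM after LPS (3.12 ± 0.25, adjusted p = 7.8e-08). Il1rn, the receptor antagonist, rose from 2.96, 2.44 and 2.31 to 23.3 and 42.6 CPM, and Il18rap, a signalling chain of the interleukin 18 receptor, from 0.443, 0.0739 and 0.284 to 39.3 and 43.6 CPM. Every LPS library, the excluded one included, lay above every saline library for these 3 genes.

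Of 22 other cytokine genes 10 rose, 1 fell and the median was 1.39. Tnf, the tumour necrosis factor, stood at 265, 334 and 517 CPM after saline and 1472 and 1625 CPM after LPS (2.06 ± 0.28, adjusted p = 5.6e-05). Osm, the cytokine oncostatin M, rose from 51, 63.6 and 45.9 to 248 and 319 CPM and Tnfsf9, the ligand of 4-1BB, from 37, 55 and 28.1 to 399.7 and 489 CPM. Csf2rb, the shared receptor chain for colony-stimulating factor 2 and interleukin 3, rose from 82.5, 72 and 66.6 to 342 and 284 CPM. The groups were separated for all 4. The 1 fall of the list remained only when saline replicate 3 was the library left out.

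Chemokines changed gene by gene. Of 15 CC chemokines 5 rose and 1 fell, and 3 rose without LPS replicate 2 or saline replicate 1. Ccl12, a ligand of Ccr2, rose from 48.7, 52.5 and 59.5 to 234 and 288 CPM (2.28 ± 0.30, adjusted p = 3e-05), and Ccl5, which attracts T cells and monocytes, from 3.23, 2.62 and 1.71 to 25.5 and 54.5 CPM. Ccl24, an eosinophil attractant, fell from 11.3, 19.2 and 19.6 to 3.09 and 3.34 CPM. Ccl2, the main monocyte chemoattractant, went from 32.7, 75.7 and 69.2 to 98.5 and 156 CPM and was called with all libraries (1.10 ± 0.30, adjusted p = 0.02) but not without LPS replicate 2 (adjusted p = 0.462), nor when saline replicate 1 was dropped (adjusted p = 0.0875).

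Of 10 CXC chemokines 3 rose, and 1 did without LPS replicate 2. Cxcl13, the B cell attractant, had 0 counts in the 3 saline libraries and 5.43 and 13.6 CPM in the LPS libraries, which is at least 244.3-fold higher when the saline group is set at 3 counts in all. Cxcl2, a neutrophil attractant, went from 18.5, 22.6 and 11.2 to 55.8 and 71.8 CPM and lost its call without LPS replicate 2 (adjusted p = 0.139), and again when saline replicate 3 was dropped (adjusted p = 0.0736). Cxcl10, an interferon-responsive chemokine, did not pass the test (15.2, 17.7 and 25.2 and 48.1 and 39.1 CPM, 1.17 ± 0.39, adjusted p = 0.066). Among 16 receptors for chemokines and other attractants 5 rose and 2 fell, and 1 fell without any 1 library other than LPS replicate 1. C5ar1, the receptor for complement fragment C5a, rose from 145, 167 and 249 to 1292 and 1352 CPM, and Ccr7, which guides cells towards lymphoid tissue, from 0.266, 0.295 and 0.817 to 9.63 and 26.3 CPM.

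Fc gamma receptors and a part of the pattern receptors rose. Of 8 Fc gamma receptors and relatives 5 rose and 1 fell, and 3 rose without LPS replicate 2. Fcgr4, an activating receptor for immunoglobulin G, had the smallest adjusted p of all genes. It stood at 18.7, 21.4 and 24 CPM after saline and 312 and 329 CPM after LPS (3.91 ± 0.19, adjusted p = 1.8e-10). Fcgr3, also activating, rose from 1957, 2059 and 2054 to 4407 and 5046 CPM and the inhibitory Fcgr2b from 402, 454 and 439.7 to 874 and 1093 CPM.

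Of 32 scavenger and pattern receptors 14 rose, 1 fell (0 to 2 with 1 library left out) and the median was 0.90. Msr1, the class A scavenger receptor, rose from 8.14, 8.16 and 11.7 to 287 and 336 CPM (5.06 ± 0.32, adjusted p = 4.5e-09). Pilra, an inhibitory receptor, rose from 15.5, 14.3 and 14 to 117 and 121 CPM and Cd300lf, another inhibitory receptor of myeloid cells, from 1.42, 0.96 and 2.84 to 74.4 and 80.8 CPM. Among 17 co-stimulatory and checkpoint genes 5 rose and 1 fell, and 3 rose without LPS replicate 2 or saline replicate 2. Pirb, an inhibitory receptor for MHC class I, rose from 16.3, 19.4 and 21.1 to 104 and 151 CPM, and Sirpa, the receptor for the Cd47 signal against engulfment, fell from 2101, 2027 and 2148 to 935 and 1075 CPM (-1.06 ± 0.16, adjusted p = 0.00011).

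Complement rose in 8 of 21 genes and fell in none, with a median of 0.80. Cfb, factor B of the alternative pathway, rose from 1.55, 1.26 and 0.604 to 18.3 and 25.8 CPM, and Cd55, which speeds the decay of complement convertases, from 2.12, 1.85 and 1.85 to 12.5 and 24 CPM. Lipid mediator genes rose in 6 of 19 cases and fell in 3, and without LPS replicate 2 they rose in 3 and fell in 1. Ptgs2, the inducible cyclooxygenase, rose from 19.1, 23.3 and 26.9 to 177 and 233 CPM (3.15 ± 0.39, adjusted p = 1.7e-05), and Alox5, which starts leukotriene synthesis, from 48.8, 52.8 and 62.7 to 323 and 319 CPM. Hpgd, which inactivates prostaglandins, fell from 512, 473 and 459.7 to 163 and 149 CPM (-1.62 ± 0.24, adjusted p = 0.00011).

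Purinergic and metabolite receptors rose in 6 of 20 cases and fell in 2, P2ry12 among them. Without LPS replicate 2 they rose in 3, and without LPS replicate 1 they fell in 1. Hcar2, the receptor for niacin and beta-hydroxybutyrate, rose from 9.69, 9.49 and 10.1 to 244 and 225 CPM (4.58 ± 0.33, adjusted p = 2.2e-08). Gpr84, a receptor for medium-chain fatty acids, rose from 253, 297 and 586 to 1138 and 1115 CPM, with saline replicate 3 at the high end of its group.

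Acute-phase genes had the highest median of the lists at 5.04, or 4.28 with the 3 genes at 0 counts in 1 group set at their bound, and 8 of 13 rose. Lcn2, which withholds siderophore iron from bacteria, stood at 2.96, 0.813 and 2.42 CPM after saline and 337 and 258 CPM after LPS (7.18 ± 0.75, adjusted p = 2.3e-06). Saa3, a serum amyloid A protein, went from 8.41, 0.886 and 0 to 220.3 and 397 CPM, with an uneven saline group. Lrg1 rose from 0.133, 0.48 and 1.31 to 104 and 82.3 CPM. Iron and metallothionein genes rose in 10 of 19 cases and fell in 1, and in 6 without LPS replicate 2. Slc39a14, an importer of zinc and iron, rose from 2.74, 3.18 and 3.23 to 28.4 and 33.9 CPM and Cp, the ferroxidase ceruloplasmin, from 25.8, 45.2 and 43.1 to 148 and 162 CPM. Redox and itaconate genes rose in 9 of 29 cases, and in 5 without LPS replicate 2. The 1 that fell lost its call without LPS replicate 1, LPS replicate 2 or saline replicate 1. Cybb, the catalytic subunit of the phagocyte oxidase, rose from 22.5, 43.7 and 38.3 to 96.9 and 109 CPM, Sod2, the mitochondrial superoxide dismutase, from 78.5, 78.2 and 92.8 to 161 and 184 CPM, and Arg1, the arginine-cleaving arginase 1, from 0.974, 0.517 and 1.81 to 15 and 22.6 CPM.

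A part of the genes of amino acid supply and protein folding rose. Of 23 genes of the Atf4 programme 10 rose and none fell, with a median of 1.06, and 5 rose without LPS replicate 2. Psat1, an enzyme of serine synthesis, rose from 52.7, 46.1 and 44.9 to 184 and 168 CPM (1.88 ± 0.17, adjusted p = 2.4e-07), and Shmt2, the mitochondrial enzyme of one-carbon metabolism, from 29.5, 28.6 and 37.2 to 93.5 and 108 CPM. Of 25 endoplasmic reticulum chaperones and stress genes 13 rose and none fell, with a median of 0.78. That count was 4 without LPS replicate 2. Manf, a secreted protein of endoplasmic reticulum stress, rose from 115, 137 and 108 to 288 and 345 CPM and Hyou1, a chaperone, from 46.2, 38.3 and 39.1 to 129 and 127 CPM, whereas the excluded library stood at 27 CPM for Hyou1.

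Energy and lipid genes gave counts that differed by list, where 6.94% of all genes were higher and 3.32% lower. Glycolysis had 8 of 28 genes higher and 1 lower, with 4 to 7 higher and 0 or 1 lower when 1 library was left out. Ldha, lactate dehydrogenase A, rose from 275, 264 and 287 to 549.8 and 579 CPM and Pfkfb3, which drives the flux into glycolysis, from 126, 104 and 129 to 399.9 and 434 CPM. Nuclear-encoded respiratory chain genes were higher in 5 of 48 cases (0 to 3 with 1 library left out) and none of the 13 mitochondrially encoded genes passed the test with edgeR (2 were lower at an unadjusted p under 0.05, where 8.67% of all genes were, and DESeq2 called 1 lower). In control striatum 34 of the same 48 nuclear genes rose. Cholesterol synthesis and uptake rose in 6 of 23 cases, but in 0 without LPS replicate 2 and 2 without LPS replicate 1. Cholesterol efflux and lipid storage rose in 7 of 25 cases, and in 4 without LPS replicate 2, and the 1 fall was lost without any 1 library. Ch25h, which makes 25-hydroxycholesterol, rose from 1.15, 2.11 and 1.71 to 17 and 17.2 CPM and Plin2, a lipid droplet coat protein, from 63.8, 66.2 and 52.5 to 167 and 193 CPM.

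**Figure D3:**
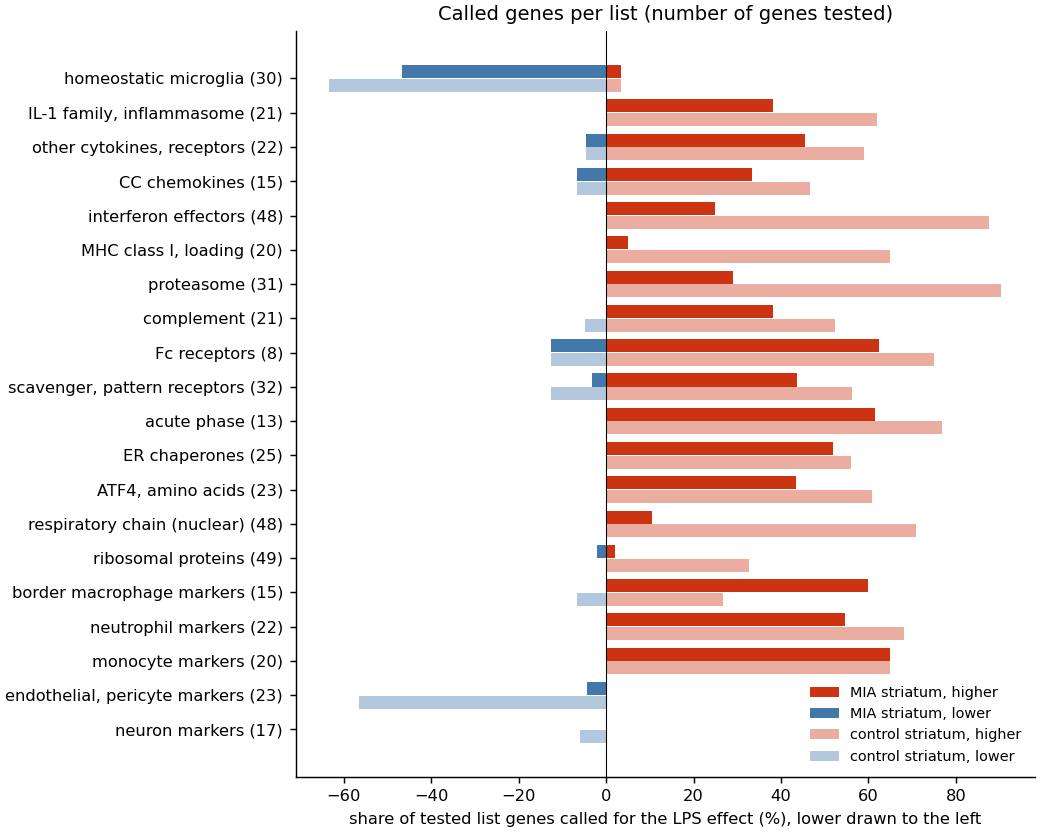
Share of the tested genes of 20 lists that were called higher (right of 0) or lower (left of 0) after LPS, in percent, with full colour for MIA striatum and pale colour for control striatum and the number of genes tested in brackets. The lists of interferon effectors (12 of 48 against 42 of 48), MHC class I (1 of 20 against 13 of 20) and proteasome (9 of 31 against 28 of 31) had fewer calls in MIA striatum, which has 1 LPS library fewer.

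Markers of other leukocytes moved with LPS. Of 22 neutrophil markers 12 rose, with a median of 3.63, and their summed level was 303 to 383 CPM after saline and 1037 to 1293 CPM after LPS. A few abundant genes carried this sum. The mean log2 CPM of the 22 was only -0.81 to 0.70 after saline and 2.78 and 3.71 after LPS. S100a8, a subunit of calprotectin, stood at 7.26, 4.03 and 17.9 CPM after saline and 83.9 and 198 CPM after LPS, whereas Ly6g, the defining surface marker, stayed at 1.5 CPM or below and Mpo and Elane, granule enzymes, below 1 CPM in all 5 libraries. Lcn2, Trem1, Cxcr2 and Il1f9 belong to this list too. Of 20 monocyte markers 13 rose, with a median of 3.39 and a summed level of 101.5 to 178.8 CPM after saline and 704 to 867 CPM after LPS. Ms4a6c rose from 34.3, 39.9 and 31.1 to 372 and 405 CPM. Ly6c2, a defining marker of classical monocytes, went from 0.531, 0.295 and 1.46 to 6.93 and 8.44 CPM (3.31 ± 0.78, adjusted p = 0.008) and lost its call without LPS replicate 2 (adjusted p = 0.0639), and again when saline replicate 2 was dropped (adjusted p = 0.0528). Ccr2 stood at 5.58, 6.65 and 5.97 and 5.23 and 8.98 CPM and did not pass the test (0.23 ± 0.55, adjusted p = 0.87). The part of these markers in the rises of receptors, acute-phase and chemokine genes was not tested.

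Macrophages of the brain borders express Mrc1, Cd163 and Lyve1. Of 15 such markers 9 rose, with a median of 1.19 and a summed level of 727 to 976 CPM after saline and 1815 to 2216 CPM after LPS, but only 2 rose without LPS replicate 2. Siglec1, a sialic acid-binding receptor, rose from 2.04, 1.59 and 3.27 to 13.1 and 23.8 CPM. Cd163, the haemoglobin scavenger receptor, went from 20.3, 34.3 and 40.6 to 93 and 110.1 CPM (1.68 ± 0.49, adjusted p = 0.033), a call lost without any 1 library other than saline replicate 3 (adjusted p = 0.0819 to 0.235), and Mrc1, the mannose receptor, went from 124, 172 and 159 to 188 and 231 CPM without passing the test (0.47 ± 0.34, adjusted p = 0.47). The library titled as excluded was lower than the other LPS libraries, at 4.57 CPM for Cd163 and 21.5 CPM for Mrc1.

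Other marker lists showed few calls, apart from endothelial activation and red cell genes. Of 12 lymphocyte markers only Ighm, the immunoglobulin mu heavy chain, was called, and it fell from 478, 448 and 399.8 to 102 and 136 CPM (-1.89 ± 0.31, adjusted p = 0.00036), while the T cell genes Trac and Lck stayed below 1 CPM in the 5 libraries. Of 23 endothelial and pericyte markers 1 fell (0 to 2 with 1 library left out), against 13 in control striatum. Of 16 genes of endothelial activation 10 rose, among them Lrg1, Ackr1 and Ptgs2, with a median of 2.95. With edgeR 0 of 20 astrocyte markers and 0 of 17 neuron markers were called. At an unadjusted p under 0.05 these were 1 and 0, and DESeq2 called 1 and 0. Haemoglobin and related red cell genes were lower in 4 of 5 cases, but saline replicate 2 (51.6 CPM summed) lay below LPS replicate 1 (55.6 CPM), and 0 or 1 of the 5 were called without LPS replicate 1, LPS replicate 2, saline replicate 1 or saline replicate 3.

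Interferon-stimulated genes rose in a minority of cases in MIA striatum. Of 48 interferon effectors 12 rose and none fell, with a median log2 fold change of 0.54, against 42 risen and a median of 2.33 in control striatum and 28 and 1.41 in MIA cortex. The count of 12 was 5 without LPS replicate 2 and 21 with the excluded library added. The mean log2 CPM of the 48 genes was 3.15 to 3.46 in the MIA saline libraries and 4.10 and 4.22 in the MIA LPS libraries. It was 3.37 to 3.7 in control saline, 5.54 to 6.18 in control LPS and 5.10 in the library titled as excluded. The 2 MIA LPS libraries thus lay between all saline and all control LPS libraries of the striatum, and the excluded library lay nearer to the control LPS libraries than they did.

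Several classical antiviral genes stood near their saline level after LPS. Isg15 (ENSMUSG00000035692.7), a ubiquitin-like modifier, stood at 3.23, 3.55 and 4.19 CPM after saline and 4.40 and 5.06 CPM after LPS in MIA striatum, against 3.58, 2.34 and 2.68 and 15.9, 16.2 and 28.3 CPM in control striatum. The LPS libraries lay just above saline in the MIA group, without passing the test (0.37 ± 0.55, adjusted p = 0.77). Ifit3, another interferon-stimulated gene, stood at 13.9, 11.2 and 14.6 and 11.1 and 13.2 CPM in MIA striatum, where the groups overlapped. In control striatum it stood at 17, 15.3 and 13.5 and 124, 58.4 and 91.8 CPM. Rtp4, an interferon-induced regulator, stood at 9.91, 10.6 and 14.2 and 12 and 16.8 CPM against 16.4, 16.4 and 15.2 and 145, 119 and 179.7 CPM. In the excluded library these genes stood at 13.7, 85.2 and 138 CPM, within the range of the control LPS libraries for Ifit3 and Rtp4 and below it for Isg15. Ifit3 and Rtp4, with Trim30a, Xaf1, Phf11b and Bst2 below, were named after their values were seen.

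Other members of the list did rise. Slfn2, a growth regulator of the Schlafen family, rose from 28.1, 26.2 and 36.3 to 177 and 191 CPM (2.61 ± 0.20, adjusted p = 2.6e-08), Ifitm2, a membrane protein that blocks viral entry, from 11.9, 18 and 19.8 to 65.1 and 99.4 CPM, and Ifi204, a DNA sensor, from 8.23, 9.23 and 12 to 68.6 and 75.9 CPM. Ifitm3, a relative of Ifitm2, went from 34.1, 41.1 and 51.8 to 127 and 159 CPM (1.76 ± 0.37, adjusted p = 0.0033) and lost the call without LPS replicate 2 (adjusted p = 0.069). Irf7, the master regulator of type I interferon genes, was called with all libraries (4.51, 7.17 and 7.39 and 20.8 and 29.5 CPM, 1.98 ± 0.60, adjusted p = 0.038) and not without any 1 of the 5 (adjusted p = 0.0785 to 0.289). Of 15 interferon-inducible GTPases only Gbp7 rose, against 8 in control striatum, and 6 rose with the excluded library added.

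The promoters of Isg15, Ifit3 and B2m, the light chain of MHC class I described below, and of Fcgr4 and Lcn2, which rose strongly, are shown to set the motif content beside the response. Each covers 300 bases across the annotated start, most of them upstream, in RefSeq (mouse build GRCm38.p6). Capitals mark matches on either strand to the core of the interferon-stimulated response element in the first 4. This core was searched as GAAA, 2 bases of any kind and GAAA, and its matches can overlap. In Lcn2 they mark the match to TTGCNNAA, a C/EBP-type motif.
Isg15, chr4:156200769-156201068, minus strand: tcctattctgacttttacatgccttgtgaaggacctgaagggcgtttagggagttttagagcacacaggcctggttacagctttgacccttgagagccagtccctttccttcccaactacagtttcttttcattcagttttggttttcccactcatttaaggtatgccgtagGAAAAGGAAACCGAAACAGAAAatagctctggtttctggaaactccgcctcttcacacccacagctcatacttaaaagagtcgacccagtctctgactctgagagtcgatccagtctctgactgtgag
Ifit3, chr19:34583279-34583578, plus strand: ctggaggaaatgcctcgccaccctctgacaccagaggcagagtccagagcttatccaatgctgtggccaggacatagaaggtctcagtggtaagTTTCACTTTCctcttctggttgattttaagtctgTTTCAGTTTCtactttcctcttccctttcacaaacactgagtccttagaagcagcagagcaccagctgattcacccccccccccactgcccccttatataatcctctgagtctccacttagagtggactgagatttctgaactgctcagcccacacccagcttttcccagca
B2m, chr2:122147437-122147736, plus strand: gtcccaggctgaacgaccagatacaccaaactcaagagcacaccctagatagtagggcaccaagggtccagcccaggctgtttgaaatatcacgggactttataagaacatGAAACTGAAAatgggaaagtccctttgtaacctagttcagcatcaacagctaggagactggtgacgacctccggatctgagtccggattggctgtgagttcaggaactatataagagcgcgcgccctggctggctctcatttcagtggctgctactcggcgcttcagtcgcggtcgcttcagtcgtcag
Fcgr4, chr1:171018676-171018975, plus strand: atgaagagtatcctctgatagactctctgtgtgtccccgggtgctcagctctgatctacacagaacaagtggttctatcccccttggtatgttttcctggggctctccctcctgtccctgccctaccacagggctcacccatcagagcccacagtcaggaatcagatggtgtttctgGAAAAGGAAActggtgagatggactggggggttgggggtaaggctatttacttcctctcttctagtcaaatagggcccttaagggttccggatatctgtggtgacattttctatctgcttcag
Lcn2, chr2:32387690-32387989, minus strand: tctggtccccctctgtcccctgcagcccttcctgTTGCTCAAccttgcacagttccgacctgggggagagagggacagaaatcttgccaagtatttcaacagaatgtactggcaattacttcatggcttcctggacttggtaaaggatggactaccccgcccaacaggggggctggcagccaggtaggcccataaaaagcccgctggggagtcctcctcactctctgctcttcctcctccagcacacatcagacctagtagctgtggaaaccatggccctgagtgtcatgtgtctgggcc

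The interferon-response core was present in 392 of the 12001 tested genes with a promoter of this length (3.27%). Among genes that rose at least 2-fold it was present in 31 of 506 in MIA striatum (6.13%) and in 70 of 761 in control striatum (9.20%), and 19 of 36 interferon effectors with a promoter held it (52.8%). The Isg15 promoter held 3 matches, Ifit3 2, B2m 1 and Fcgr4 1, so a match stood both before genes near their saline level and before the gene with the smallest adjusted p. TTGCNNAA was present in 8.61% of all promoters, in 63 of the 506 (12.5%) and in 90 of the 761 (11.8%). Of 248 genes that fell at least 2-fold in MIA striatum, 11 held the interferon-response core (4.44%) and 26 held TTGCNNAA (10.5%). A match is a description of the letters and shows no binding.

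Whether the LPS effect differed between MIA and control striatum was tested as a difference of the 2 effects, and no gene passed. With edgeR 0 of 17125 genes were called at an adjusted p under 0.05 in either direction (0.0%). At an unadjusted p under 0.05 the effect was lower in MIA for 734 genes (4.29%) and higher for 588 (3.43%). DESeq2 called 30 lower and 7 higher, and edgeR called 6 lower on the 11 striatal libraries alone and 22 lower and 1 higher without MIA cortex LPS replicate 3, a library that enters only through the shared estimate of spread. The smallest adjusted p, 0.069, was shared by Ccl12, B2m and Tmem44, a membrane protein gene named after its values were seen whose effect was higher in MIA (1.45 ± 0.25). For Ccl12 the difference was -2.45 ± 0.41 on the log2 scale (SE, adjusted p = 0.069), from an effect of 2.28 in MIA and 4.73 in control striatum.

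Interferon effectors made up a part of this lower side. Of the 48, 47 had a lower effect in MIA and 34 did so at an unadjusted p under 0.05, with a median difference of -1.55, where the share over all genes was 4.29%. That count was 28 to 35 with any 1 of the 11 striatal libraries left out and 16 with the excluded library added, when the median was -0.98. Trim30a, a ubiquitin ligase, had a difference of -1.59 ± 0.33 (unadjusted p = 0.00011, adjusted p = 0.21). Xaf1, which promotes cell death, had -2.43 ± 0.55 (adjusted p = 0.34), Phf11b -2.09 ± 0.48 (adjusted p = 0.36) and Bst2, the virion tether tetherin, -1.46 ± 0.36 (adjusted p = 0.36). None of the 48 passed the adjusted threshold in the fit of 23 libraries. Called lower were 14 without MIA cortex LPS replicate 3, 8 with DESeq2 and 5 on the 11 striatal libraries alone. The number was 0 with another scaling, no filter, a replicate block or the excluded library added. The list was chosen with earlier results of these data known, so its counts are no independent test.

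**Figure D4:**
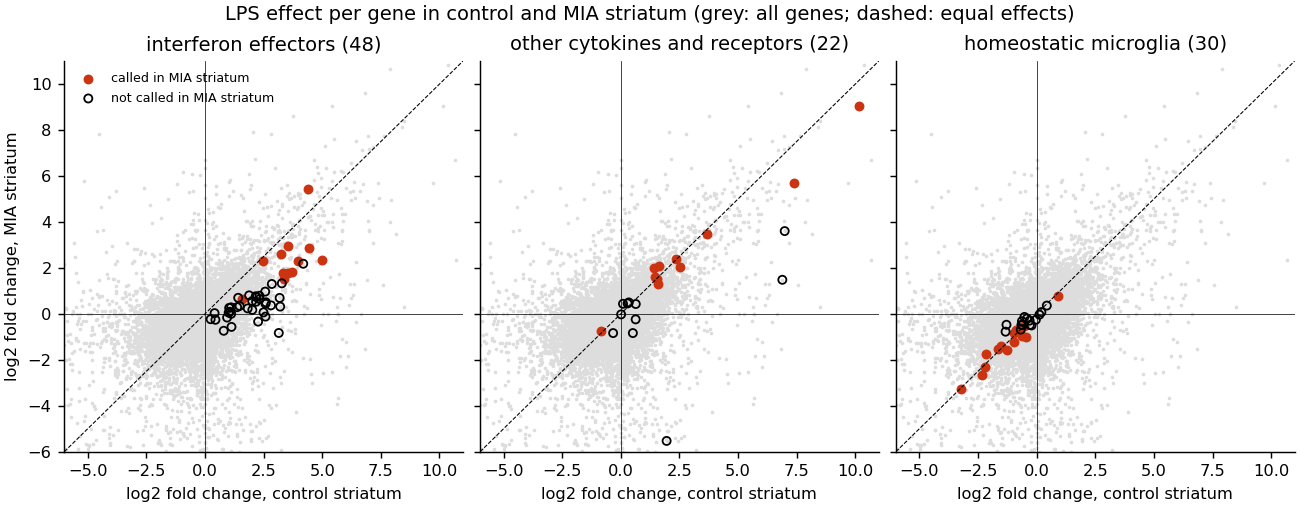
Log2 fold change of LPS over saline per gene in control striatum (x axis) and MIA striatum (y axis), with all genes within the axes in grey, the members of 3 lists as larger points (filled where called in MIA striatum) and a dashed line of equal effects. Of the 48 interferon effectors 47 lie below the line, while the 22 other cytokine genes and 30 homeostatic genes lie on both sides of it.

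Antigen presentation genes of MHC class I gave a single call in MIA striatum. Of 20 genes only Calr, the chaperone calreticulin, was called in MIA striatum, and it lost the call without any 1 library (adjusted p = 0.0516 to 0.227), against 13 higher in control striatum. B2m (ENSMUSG00000060802.8), the light chain of MHC class I, stood at 3247, 3283 and 3078 CPM after saline and 2210 and 2665 CPM after LPS in MIA striatum (-0.39 ± 0.16, adjusted p = 0.15). It stood at 1988, 2208 and 2588 and 3489, 3964 and 5105 CPM in control striatum, so the MIA saline libraries lay above the control saline libraries and the MIA LPS libraries below the control LPS libraries. The difference of effects was -1.28 ± 0.22 (adjusted p = 0.069), and the excluded library stood at 4387 CPM. At an unadjusted p under 0.05, 9 of the 20 had a lower effect in MIA, and 4 to 10 did when 1 library was left out and 3 with the excluded library added. With edgeR 0 of 6 immunoproteasome genes were called in MIA striatum (1 higher and 2 lower at an unadjusted p under 0.05, against 12.8% and 8.67% of all genes, and DESeq2 called 2 lower), and 4 rose in control striatum. In MHC class II, 1 gene rose and 2 fell of 13 (1 to 3 fell with 1 library left out). Ifi30, a lysosomal thiol reductase, rose from 87.5, 90.1 and 86.1 to 435 and 414 CPM, and H2-Aa, a class II alpha chain, did not pass the test (52.6, 94.8 and 58.2 and 17.8 and 44.3 CPM, adjusted p = 0.082).

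Proteasome genes rose in 9 of 31 cases in MIA striatum, with a median of 0.34, and in 28 in control striatum, with 0.58. The 9 were 1 to 5 when 1 library was left out and 19 with the excluded library added. At an unadjusted p under 0.05, 6 of the 31 had a lower effect in MIA (2 to 7 with 1 library left out, 0 with the excluded library added). Ribosomal protein genes gave 1 higher and 1 lower of 49 (0 and 0 or 1 with 1 library left out) against 16 higher in control striatum. Of the 49, 12 had a lower effect at that level, and 4 to 20 did when 1 library was left out. The mean log2 CPM of 48 nuclear respiratory chain genes was 6.22 to 6.26 in MIA saline and 6.4 and 6.48 in MIA LPS, against 5.98 to 6.12 and 6.53 to 6.70 in control striatum. Saline libraries were thus higher and LPS libraries lower in the MIA group, and the excluded library stood at 7.13, above all of them.

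Of the 22 other cytokine genes 1 had a lower and none a higher effect in MIA at an unadjusted p under 0.05, with a median difference of -0.22, and of the 30 homeostatic genes 1 had a lower and 1 a higher effect, with a median of -0.02. Without control LPS replicate 3 the higher effects were 3 cytokine and 6 homeostatic genes, and without MIA saline replicate 3 the lower effects were 3 cytokine genes. For Il1b the difference was 0.21 ± 0.34 (adjusted p = 0.91), for Tnf -0.48 ± 0.38 (adjusted p = 0.78), for Lcn2 0.20 ± 0.90 (adjusted p = 0.98) and for P2ry12 -0.11 ± 0.26 (adjusted p = 0.94). Lower effects in MIA at that level were found for 4 of 21 genes of the interleukin 1 family and inflammasome (median difference -0.26), 4 of 15 CC chemokines (median -0.48) and 2 of 10 CXC chemokines (median -0.61), and higher effects for none. Without MIA LPS replicate 1 the lower effects were 0, 2 and 2, without another 1 of the 11 libraries 2 to 5, 2 to 4 and 1 to 2, and with the excluded library added 1, 1 and 1. The CXC median was 0.1 without MIA saline replicate 2. The errors of the single genes leave room for differences in either direction. Among border macrophage markers 5 of 15 had a higher effect in MIA at that level, and 3 to 5 did when 1 library was left out, but none did with the excluded library added. Of 23 endothelial and pericyte markers 11 had a higher effect, from a control saline sum of 2777 to 4995 CPM and a control LPS sum of 1760 to 2066 CPM, and that count was 1 to 17 when 1 library was left out. All 5 red cell markers had a lower effect in MIA at that level, with a median difference of -2.92, and the count was 0 without MIA LPS replicate 2, 2 without MIA saline replicate 3 and 4 or 5 without another library. Their sum was 51.6 to 421 CPM in MIA saline, 55.6 and 20.8 CPM in MIA LPS, 112 to 242 CPM in control saline and 140 to 204 CPM in control LPS libraries. The part of these cells in the differences above was not tested.

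**Figure D5:**
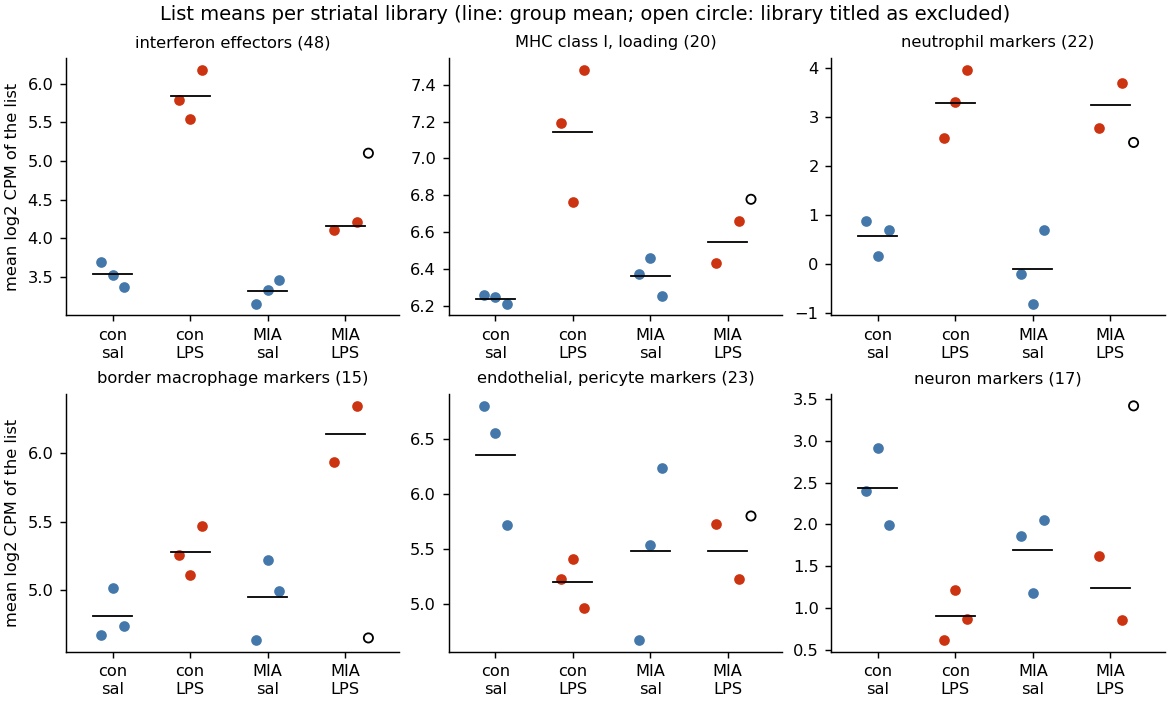
Mean log2 CPM of 6 lists in each striatal library of the control (con) and MIA groups after saline (sal, blue) or LPS (red), with lines at group means and an open circle for the library titled as excluded. For interferon effectors the 2 MIA LPS libraries (4.10 and 4.22) lie between saline and control LPS (5.54 to 6.18), and for neuron markers the excluded library lies above all others.

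Against MIA cortex the striatal LPS effect gave no called difference either. With edgeR 0 of 17125 genes were called (0.0%), 225 had a higher effect in striatum (1.31%) and 252 a lower one (1.47%) at an unadjusted p under 0.05, and DESeq2 called 4 higher and 2 lower. The smallest adjusted p, 0.37, was shared by Mcemp1, named after its values were seen, and Anxa1, a mediator of resolution induced by glucocorticoids. Anxa1 stood at 2.88, 3.84 and 5.75 and 17.2 and 31.5 CPM in MIA striatum and at 28.5, 16.9 and 21.7 and 20.5, 32.8 and 14.1 CPM in MIA cortex, a difference of 2.54 ± 0.47 on the log2 scale. Several genes tied to neutrophils pointed the same way without passing. For Trem1 the difference was 3.19 ± 0.73 (unadjusted p = 0.0003), for Lcn2 3.14 ± 0.86 (unadjusted p = 0.0016) and for Il1r2 2.81 ± 0.76 (unadjusted p = 0.0015). Of 22 neutrophil markers 12 rose in MIA striatum, against 4 that rose and 2 that fell in MIA cortex. Only 1 of the 22 had a lower effect in striatum, and 16 had a higher one at an unadjusted p under 0.05. That count was 12 to 17 without 1 saline or cortical library and 14 with the excluded library added. The median difference was 3.25, with 3.84 without MIA striatum LPS replicate 1 and 2.62 without MIA striatum LPS replicate 2. In control striatum 15 of the 22 rose, with a median of 2.97. Of the 48 interferon effectors 42 had a lower effect in striatum, 8 of them at an unadjusted p under 0.05, and 1 had a higher effect at that level, with a median difference of -0.67. That direction rested on 1 cortical library: without MIA cortex LPS replicate 3 only 14 of the 48 had a lower effect and the median was 0.20, and with the excluded striatal library added 27 did and the median was -0.04. Without another 1 of the 11 libraries the lower effects at that level were 2 to 19 genes and the medians -0.94 to -0.55.

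The library titled as excluded differed from the other LPS libraries in more than the interferon genes. It had 27358935 counts, of which 6.16% came from mitochondrial genes, and the 17 neuron markers summed to 598.2 CPM against 52.7 to 125 CPM in the other 5. Oligodendrocyte markers summed to 6900 CPM and astrocyte markers to 3073 CPM, above all 5. Tlr4 stood at 18.6 CPM, Csf1r at 3424 CPM and Itgam, the integrin chain CD11b bound by the beads, at 222 CPM, against 1186, 1057 and 1254 CPM in saline and 1110 and 1214 CPM in the other LPS libraries. With this library added, 1422 genes were higher and 779 lower in MIA striatum.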

How the data were processed

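CD11b-bead fractions were sequenced from oligo-dT primed full-length cDNA libraries. The deposited table holds expected counts per gene, and STAR, RSEM and DESeq2 are named in the submitters' processing notes. The versions, the genome build and the annotation are not given in the sources used here. Symbols were paired with 55141 of 55487 gene IDs. RSEM divides reads among near-identical genes, so Ifitm, Pilrb, Cd300 and haemoglobin relatives are uncertain. Of the values, 6.92% were not whole, and all were rounded. Genes were filtered with filterByExpr (minimum count 10, minimum total 15), leaving 17125. The edgeR 4.0.16 quasi-likelihood test (R 4.3.3, TMM scaling) was fitted on 23 libraries in 8 groups, so all groups shared 1 estimate of spread. Adjusted p-values are Benjamini-Hochberg values over all 17125 genes at a threshold of 0.05, and the code was tested on simulated data. The members and lists were chosen with earlier results of these data known. Several kinds of genes are named. The first are the 15 strongest rises and 15 strongest falls called, provided that 1 group averaged 10 CPM or more, its libraries stood apart from those of the other group, and the gene was not a predicted one. The second are the best-supported called members of a list, at most 4 each, and the third are fixed genes of the pathways. Alternatives were DESeq2 1.42.0, another scaling, no filter, a replicate block, the excluded library added, fewer groups and each library left out. Total counts per library, which set the precision, were 19453295 to 29480499, and counting intervals cover counting error only.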

Additional observations from a re-analysis of the deposited data

Results flagged for a closer look

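The library titled as excluded by the submitters, MIA striatum LPS replicate 3, entered none of the main comparisons and held signals above those of the 3 MIA striatum saline libraries. The mean log2 CPM of 48 interferon effectors was 5.10 in it, against 3.15 to 3.46 after saline and 4.10 and 4.22 in the LPS libraries used. The mean log2 CPM of 48 nuclear respiratory chain genes was 7.13, against 6.22 to 6.26 and 6.4 and 6.48. For 19 striatal neuron markers it was 3.41, against 0.69 to 1.53 after saline and 0.73 and 0.46 in the LPS libraries used. Mitochondrial genes took 6.16% of its counts, against 2.37% to 3.64% in the other 5 libraries. The part of cell content or RNA quality in its interferon values was not tested.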

How the results depend on the processing

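Of the 1188 higher and 568 lower genes in MIA striatum, 476 to 872 and 226 to 596 were called when 1 of the 5 libraries was left out, and DESeq2 called 1037 lower. The replicate numbers were not taken to pair the samples. The correlation of deviations between LPS and saline libraries was -0.11 for number 1 and 0.21 for number 2, too few pairs to decide it. It was 0.0037 to 0.43 in control striatum. Same-numbered cortical and striatal libraries of the same treatment correlated at 0.32 to 0.67 in the control groups. In the MIA groups they correlated at 0.46, -0.09 and 0.68 after saline and at -0.32 and 0.22 after LPS. MIA striatum saline replicate 3 correlated at 0.17 to 0.68 with the libraries numbered 3 of the other groups. Number 3 enters the LPS effect in MIA striatum only on the saline side, because LPS replicate 3 was left out. A replicate block gave 1354 higher and 798 lower genes. For the difference between MIA and control striatum, with 0 calls, DESeq2 gave 7 higher and 30 lower genes, the fit without MIA cortex LPS replicate 3 gave 1 and 22, no filter on low counts gave 0 and 1, the striatal groups alone gave 0 and 6, and leaving out 1 library gave 0 to 0 and 0 to 1 (B2m without control LPS replicate 1, Ccl12 without control LPS replicate 2). The block called 0 genes in this and the next difference. For the difference between MIA striatum and MIA cortex, DESeq2 gave 4 higher and 2 lower genes, no filter gave 6 and 1, and leaving out 1 library gave 0 to 1 higher (Il1r2 without MIA cortex saline replicate 3). The cause of these changes was not tested. For the LPS effect in MIA striatum, values of single named genes kept their side of the threshold in 2004 cases. They fell short of it in 167, newly passed it in 13 and reversed in 0. The 2 differences of effects were followed for the fixed genes and for genes called for either difference in any setting. Their values kept their side in 2367 cases, newly passed the threshold in 83 and reversed in 0. Choosing genes called in any setting fixed part of the 83 in advance. A change of direction counted as reversed only where either fit passed the threshold. The 2004 and 2367 cases can therefore hold changes of direction. Depth and the 2 LPS libraries limit the precision.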
